A study of Mus musculus with 9 samples.

Results

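The insulin-like growth factor (IGF) axis of mouse embryonic fibroblasts (MEFs) is described here by 10 genes chosen by name, all of which were found among the 15184 genes of the deposited table. They are the ligand gene *Igf2*, the receptor genes *Igf1r* and *Igf2r*, the binding protein genes *Igfbp2*, *Igfbp3*, *Igfbp4*, *Igfbp5*, *Igfbp6* and *Igfbp7*, and the noncoding RNA *H19*. PolyA+ RNA was sequenced from 3 empty vector libraries (Empty) and from 6 libraries labelled Hnrnpk_SAM, 3 of the line SAM1 and 3 of the line SAM2. All cells were MEFs of wild-type origin, transduced with lentiviruses and selected with antibiotics. In the synergistic activation mediator (SAM) system, an inactive Cas9 and a guide RNA bring activators to the promoter of a chosen gene, here *Hnrnpk*, which encodes an RNA-binding protein. The labels do not give the guide of either line, nor do they say whether libraries of 1 line came from separate cultures, so p-values measure the spread between libraries and the SAM libraries rest on 2 lines.

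The targeted gene was checked in every library. *Hnrnpk* had 25058, 26098 and 26164 normalized counts in Empty, 24102, 24045 and 23619 in SAM1, and 26608, 26859 and 26221 in SAM2. SAM1 thus lay below Empty (log2 fold change -0.11, adjusted p = 0.00252) and SAM2 just above it (0.044, adjusted p = 0.159), so this mRNA was not called higher in either line, and directions are given for the libraries as labelled. HNRNPK protein was not analysed here. Between 41759636 and 49026626 reads per library fell on the listed genes. All 10 fibroblast markers were in the table, with a summed level of 665769 to 711423 normalized counts in Empty, 568719 to 572695 in SAM1 and 720173 to 740308 in SAM2. Most of this sum was *Col1a1* and *Col1a2* (means 221562 and 237588 in Empty), and its members moved in both directions. The means of *Dcn* were 11815, 2713 and 2538 in Empty, SAM1 and SAM2, and those of *Pdgfrb* 6569, 12577 and 9513. Of markers of other cell types, 17 of 30 were in the table, and the defining genes *Epcam*, *Ptprc*, *Myod1* and *Sox10* were not. Some of these lists differed between the groups: 4 of 5 endothelial markers summed to 301 to 357 in Empty, 4613 to 4988 in SAM1 and 638 to 689 in SAM2, carried by *Kdr*, and the 5 cartilage and bone markers to 4468 to 4677, 16691 to 17480 and 7310 to 7589, carried by *Sox9* and *Col2a1*. Neural markers, 3 of 5 and mostly *Nes*, summed to 2176 to 2345 in Empty, 8988 to 9160 in SAM1 and 8273 to 8460 in SAM2. Epithelial markers, 2 of 5, summed to 42.1 to 50.1 in Empty, 110 to 113 in SAM1 and 42.7 to 52.4 in SAM2. The part of these differences in the changes described here was not tested, and in bulk RNA fewer cells of a type and less RNA per cell cannot be told apart.

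IGF ligands act through the tyrosine kinase receptor IGF1R, which signals to growth and survival. IGF2R, the cation-independent mannose 6-phosphate receptor, takes up IGF2 and delivers it to lysosomes, where it is degraded. Outside the cell most IGF is held by binding proteins, which prolong its life and either restrict or promote its access to receptors, and which are themselves cut by proteases. *Igf2* and *H19* are neighbouring imprinted genes, expressed from the paternal and the maternal allele, respectively, and both are high in the embryo and fall after birth.

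In line SAM1 all 10 genes passed the test against Empty (limma, adjusted p-value below 0.05), 5 higher and 5 lower. This has to be read against the whole table, in which 74.3% of genes were called, 37.3% higher and 36.9% lower. In line SAM2 the 10 genes were likewise all called, 5 higher and 5 lower, against 70.5% of all genes, 35.2% higher and 35.3% lower. The count of calls therefore says little about these genes, and their sizes of change varied widely. By absolute log2 fold change they ranked from 65 (*Igfbp2*) and 115 (*Igfbp3*) to 10715 (*Igf2r*) of 15184 genes in SAM1, and from 119 (*Igfbp3*) to 8418 (*Igfbp4*) in SAM2, where *Igfbp2* ranked at 957. Between the lines, 8 of the 10 differed, 5 higher and 3 lower in SAM2 than in SAM1, against 60.3% of all genes (31.1% higher, 29.2% lower). The median log2 fold change of the 10 genes was -0.28 in SAM1 and 0.070 in SAM2, and that of all genes 0.0093 and -0.0015. Each value below is a deposited normalized count, a count divided by the size factor of its library, and fold changes are on the log2(normalized count + 1) scale, which understates changes of low genes.

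**Figure D1:**
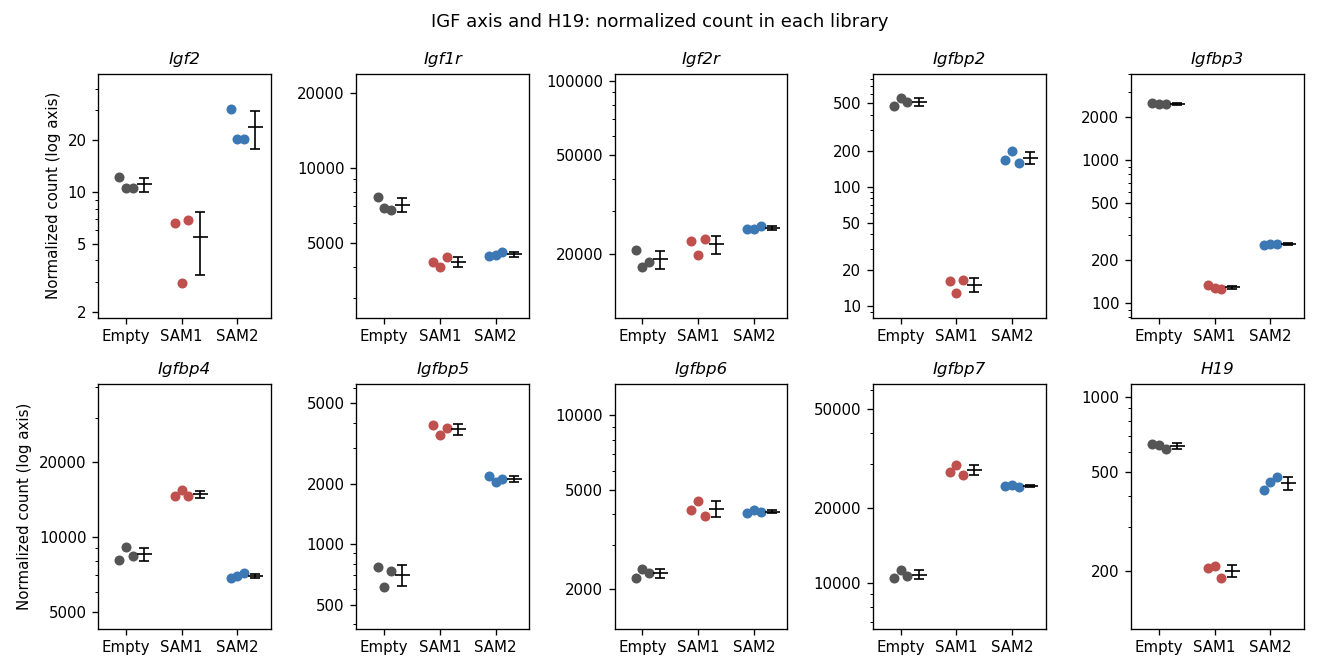
Normalized counts (log axis, counts divided by the library's size factor) of the 10 genes in each of the 9 libraries, with the group mean and SD (n = 3) as a bar beside the points. *Igfbp2* and *Igfbp3* fell in both lines, *Igfbp5*, *Igfbp6* and *Igfbp7* rose in both, and *Igfbp4* and *Igf2* lay on opposite sides of Empty in the 2 lines.

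**Figure D2:**
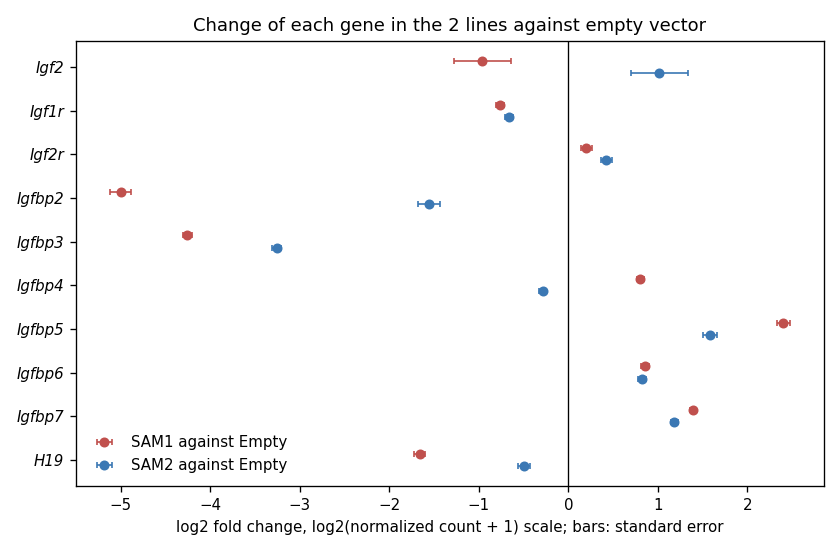
Log2 fold change of each gene in SAM1 (red) and SAM2 (blue) against Empty, with standard errors as horizontal bars. The changes run from -5.00 for *Igfbp2* to 2.40 for *Igfbp5*, both in SAM1, and both comparisons share the Empty libraries.

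The ligand *Igf2* was nearly silent in these cells. Reads on it numbered 12, 10 and 9 in the Empty libraries, 7, 3 and 7 in SAM1, and 31, 22 and 22 in SAM2, which is 12.3, 10.5 and 10.5 normalized counts in Empty, 6.64, 2.96 and 6.84 in SAM1 and 30.7, 20.4 and 20.4 in SAM2. The 3 groups did not overlap, with SAM1 lowest and SAM2 highest. *Igf2* fell by 0.96 on the log2 scale in SAM1 (standard error 0.319, adjusted p = 0.0150) and rose by 1.01 in SAM2 (standard error 0.319, adjusted p = 0.0119). At this depth the calls against Empty were fragile: without SAM1 replicate 2 the value in SAM1 was -0.64 (adjusted p = 0.0685), without SAM2 replicate 1 that in SAM2 was 0.83 (adjusted p = 0.0626), DESeq2 gave an adjusted p of 0.0702 in SAM1, and quantile normalization gave 0.0589 in SAM2. The size depended on the scale as well: in SAM1 it was -1.996 with quantile normalization (adjusted p = 0.000318) and -0.46 with a pseudocount of 10 (adjusted p = 0.0246), which gave 0.67 in SAM2 and 1.12 between the lines. The difference between the lines, 1.98 on the log2 scale (standard error 0.319, adjusted p = 0.000141), was larger than the spread between libraries. In GRCm39 *Igf2* occupies chromosome 7, 142204503 to 142220694, minus strand.

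*H19* lies 70.5 kb from *Igf2* on the same strand, from 142129262 to 142133957, and was far more abundant. Its normalized counts were 651, 640 and 617 in Empty, 206, 208 and 188 in SAM1, and 423, 453 and 477 in SAM2. The groups did not overlap, and Empty was highest. *H19* fell by 1.66 on the log2 scale in SAM1 (standard error 0.0650, adjusted p = 6.35e-11) and by 0.50 in SAM2 (standard error 0.0650, adjusted p = 1.43e-05), and SAM2 lay 1.17 above SAM1 (adjusted p = 6.95e-09). Thus in SAM1 both genes of the pair were lower than in Empty, while in SAM2 *H19* was lower and *Igf2* higher. The ratio of *H19* to *Igf2*, per kilobase (kb) of transcript, was 96.4 ± 6.82 in Empty, 71.9 ± 39.9 in SAM1 and 33.2 ± 8.75 in SAM2 (SD, n = 3), and at so few *Igf2* reads the SAM1 ratio lay within its spread of Empty.

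*H19* RNA is also the precursor of a microRNA, miR-675, whose hairpin lies at chr7:142130801-142130884 on the minus strand, in exon 2 of the 6 exons of the canonical *H19* transcript in GENCODE vM39. Its mature forms are shown because they are made from the transcript that fell in both lines. Small RNAs are not captured in polyA+ libraries, and their levels were not measured. The sequences are from RefSeq and each matched GRCm39 at 1 site, with the seed (bases 2 to 8) in capitals.
mmu-miR-675-5p: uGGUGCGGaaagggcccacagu
mmu-miR-675-3p: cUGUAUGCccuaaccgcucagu
Neither seed was found in another of the 1738 mature mouse miRNAs of the RefSeq table.

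The listed genes around this pair were mostly lower as well. Of 22 listed genes within 1 Mb of *H19*, 17 were called lower and 1 higher in SAM1 (median log2 fold change -0.59). In SAM2, 13 were called lower and 2 higher (median -0.30). The 22 include *Igf2*, which is thus among the lower genes in SAM1 and the higher genes in SAM2. Nearest on one side, *Mrpl23*, which encodes a mitochondrial ribosomal protein, had 229 ± 6.58 normalized counts in Empty, 114 ± 23.4 in SAM1 and 116 ± 17.2 in SAM2 (SD, n = 3), which is -1.02 in SAM1 (adjusted p = 1.84e-05) and -0.99 in SAM2 (adjusted p = 2.87e-05) on the log2 scale. Next to it *Tnnt3*, which encodes a skeletal muscle troponin, had 9.88 ± 5.00, 4.52 ± 1.02 and 15.7 ± 4.19 normalized counts (SD, n = 3), a log2 difference of -0.89 (adjusted p = 0.0487) in SAM1 and 0.69 (adjusted p = 0.122) in SAM2. Without Empty replicate 3 these were -0.55 (adjusted p = 0.212) and 1.03 (adjusted p = 0.0316), so the first call was lost and the second gained, and the SAM1 call was also lost without 5 other libraries in turn and with edgeR (adjusted p = 0.0516) and DESeq2 (adjusted p = 0.0822). On the other side of the pair, *Tspan32* was scarce too (9.21 ± 2.99, 8.73 ± 1.66 and 10.7 ± 3.03, SD, n = 3, log2 differences -0.036 and 0.21, adjusted p = 0.926 and 0.592), and *R74862* fell by 0.38 and 0.66 (adjusted p = 0.00205 and 2.14e-05). The 1084 other listed genes of chromosome 7 had a median of -0.27 in SAM1 and -0.24 in SAM2. Other chromosomes that hold members had medians from -0.22 (chromosome 1) to 0.19 (chromosome 15) in SAM1. In SAM2 theirs ran from -0.18 to 0.32, on the same 2 chromosomes. *H19* in SAM1 lay below all 22 neighbours, and *Igf2* in SAM2 lay below 1 of its 26, which include *H19*. Whether the level of the chromosome has a part in these changes was not tested.

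The receptors moved in opposite directions. *Igf1r*, which encodes the signalling receptor, had 7646, 6855 and 6791 normalized counts in Empty, 4173, 3987 and 4354 in SAM1, and 4406, 4445 and 4601 in SAM2. All 6 SAM libraries lay below the 3 Empty libraries, and *Igf1r* fell by 0.77 on the log2 scale in SAM1 (standard error 0.0461, adjusted p = 5.12e-09) and by 0.66 in SAM2 (standard error 0.0461, adjusted p = 3.00e-08). The lines differed by 0.11 (standard error 0.0461, adjusted p = 0.0651), which did not pass the threshold, although their libraries did not overlap. This difference passed without Empty replicate 1 (adjusted p = 0.0182) or SAM1 replicate 3 (adjusted p = 0.0340). *Igf1r* lies on chromosome 7 too, from 67601518 to 67883416 on the plus strand. Of the 8 listed genes within 1 Mb, 7 were called lower in SAM1 (median -0.64) and 4 lower and 1 higher in SAM2 (median -0.26), so in SAM1 the change of *Igf1r* was close to that of its neighbours, and whether the 2 are related was not tested.

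*Igf2r*, the scavenger receptor for IGF2 and one of the most abundant of the 10 transcripts, had 20811, 17780 and 18609 normalized counts in Empty, 22715, 19888 and 23119 in SAM1, and 25312, 25283 and 26104 in SAM2. The ranges of Empty and SAM1 overlapped, while SAM2 lay above both. The log2 fold change was 0.20 in SAM1 (standard error 0.0594, adjusted p = 0.00803) and 0.43 in SAM2 (standard error 0.0594, adjusted p = 2.47e-05), and the lines differed by 0.23 (adjusted p = 0.00521). With quantile normalization the value in SAM1 was 0.38 (adjusted p = 4.22e-05). *Igf2r* lies on chromosome 17 from 12901293 to 12988614 on the minus strand, and an exon of it is overlapped by *Airn*, an antisense noncoding RNA, on the other strand. The reads were from a strand-directional kit, but it is not stated that counting used the strand. *Airn* had 128 ± 15.3, 105 ± 16.7 and 112 ± 10.6 normalized counts in Empty, SAM1 and SAM2 (SD, n = 3), far fewer than *Igf2r*. The 16 listed genes within 1 Mb had medians of -0.040 and 0.0045. Per kb of transcript, the ratio of *Igf2r* to *Igf1r* was 3.74 ± 0.111 (SD, n = 3) in Empty, 7.31 ± 0.325 in SAM1 and 7.94 ± 0.0526 in SAM2, and the ranges of the SAM lines and Empty did not overlap.

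Of the binding proteins, *Igfbp3* and *Igfbp2* fell in both lines. *Igfbp2*, whose protein has a preference for IGF2 and is high in fetal tissue, had 480, 555 and 512 normalized counts in Empty, 16.1, 12.8 and 16.6 in SAM1, and 169, 198 and 159 in SAM2. It was thus 32.02-fold lower in SAM1 (log2 fold change -5.00, standard error 0.122, adjusted p = 6.62e-13) and 2.94-fold lower in SAM2 (log2 fold change -1.55, standard error 0.122, adjusted p = 9.72e-08), on the log2(normalized count + 1) scale, with 47 reads left over the 3 SAM1 libraries against 1435 over the 3 Empty libraries. SAM2 lay 3.45 above SAM1 on the log2 scale (adjusted p = 9.19e-11), the largest difference between the lines among the 10 genes. *Igfbp3*, the main carrier of IGF in serum and a growth-inhibiting protein of fibroblasts, had 2534, 2465 and 2474 in Empty, 134, 128 and 127 in SAM1, and 255, 261 and 262 in SAM2. All 6 SAM libraries lay far below Empty, and the fall was 19.1-fold in SAM1 (log2 fold change -4.25, standard error 0.0507, adjusted p = 1.44e-15) and 9.57-fold in SAM2 (log2 fold change -3.26, standard error 0.0507, adjusted p = 2.16e-14). The lines differed by 0.99 (adjusted p = 2.97e-09). *Igfbp3* lies on chromosome 11 from 7156086 to 7164179 on the minus strand, and its change lay below those of all 14 listed genes within 1 Mb in each line, whose medians were -0.26 and -0.29.

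*Igfbp5* rose where its neighbour *Igfbp2* fell. It encodes a binding protein of matrix and bone, and had 767, 609 and 739 normalized counts in Empty, 3886, 3468 and 3785 in SAM1, and 2181, 2026 and 2106 in SAM2. The groups did not overlap. *Igfbp5* was 5.28-fold higher in SAM1 (log2 fold change 2.40, standard error 0.0734, adjusted p = 5.81e-12) and 2.99-fold higher in SAM2 (log2 fold change 1.58, standard error 0.0734, adjusted p = 5.28e-10), with SAM2 0.82 below SAM1 (adjusted p = 7.07e-07). The 2 genes lie on chromosome 1 with 5456 bases between their 3' ends, *Igfbp2* from 72863606 to 72891634 on the plus strand and *Igfbp5* from 72897091 to 72914043 on the minus strand. Per kb, the ratio of *Igfbp5* to *Igfbp2* was 0.304 ± 0.0564 (SD, n = 3) in Empty, 54.1 ± 4.75 in SAM1 and 2.67 ± 0.367 in SAM2. The other listed genes within 1 Mb of the pair moved in both directions. The 12 around *Igfbp2*, which include *Igfbp5*, had medians of 0.16 in SAM1 and -0.17 in SAM2, with 5 called higher and 4 lower in SAM1 and 3 higher and 4 lower in SAM2. In each line *Igfbp2* lay below all of them and *Igfbp5* above all of its own 12.

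Because these neighbours changed in opposite directions, the sequences just upstream of their gene bodies are shown, with that of *Igfbp7*, the other strongly raised binding protein. They are from the RefSeq promoter windows, matched without mismatch to 1 site each of GRCm39 and cut at the start of the GENCODE gene body, in the sense of the gene from 5′ to 3′. Capitals mark matches, on either strand, to the TATA box letters TATAAA, the GC box GGGCGG, the CCAAT box, the AP-1 letters TGACTCA, and the E boxes CACGTG and also CAGGTG.
*Igfbp2*, chr1:72863389-72863605, plus strand: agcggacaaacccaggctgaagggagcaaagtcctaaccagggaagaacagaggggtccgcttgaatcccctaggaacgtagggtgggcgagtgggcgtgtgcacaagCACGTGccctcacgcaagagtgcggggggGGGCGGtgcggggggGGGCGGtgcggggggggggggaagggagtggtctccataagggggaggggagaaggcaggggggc
*Igfbp5*, chr1:72914044-72914274, minus strand: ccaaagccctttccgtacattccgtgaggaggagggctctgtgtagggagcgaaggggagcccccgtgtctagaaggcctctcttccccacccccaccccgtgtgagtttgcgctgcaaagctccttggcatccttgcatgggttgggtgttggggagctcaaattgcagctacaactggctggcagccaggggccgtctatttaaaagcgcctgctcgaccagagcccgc
*Igfbp7*, chr5:77555932-77556142, minus strand: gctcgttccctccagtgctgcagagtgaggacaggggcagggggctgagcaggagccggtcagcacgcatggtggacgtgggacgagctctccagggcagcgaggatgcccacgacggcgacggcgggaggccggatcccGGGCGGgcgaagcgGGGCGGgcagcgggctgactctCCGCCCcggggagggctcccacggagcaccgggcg
The *Igfbp2* sequence held 2 GC boxes and 1 CACGTG in 217 bases, that of *Igfbp5* none of the 6 motifs in 231 bases, and that of *Igfbp7* 3 GC boxes in 211 bases. No 2 of these matches overlapped. The cut ran through 1 further GC box each of *Igfbp2* and *Igfbp7*, at 37 and 44 bases before the RefSeq start. The counts above leave these out. In the uncut windows of 250 bases before the start of 27025 genes, GGGCGG was found in 33.0%, CACGTG in 6.04%, CAGGTG in 17.1%, TATAAA in 13%, CCAAT in 34.5% and TGACTCA in 4.43%. These shares are thus on a longer stretch than the counts. The CG dinucleotide occurred 12, 10 and 23 times in the sequences shown. These are descriptions of the letters, and binding was not measured.

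*Igfbp7*, a secreted protein with low affinity for IGF, was the most abundant binding protein transcript in both lines. It had 10497, 11315 and 10650 normalized counts in Empty, 28087, 29881 and 27286 in SAM1, and 24604, 24824 and 24243 in SAM2. Each group was apart from the others, with Empty lowest. The rise was 2.63-fold in SAM1 (log2 fold change 1.39, standard error 0.0370, adjusted p = 1.50e-12) and 2.27-fold in SAM2 (log2 fold change 1.18, standard error 0.0370, adjusted p = 1.18e-11), and the lines differed by -0.21 (adjusted p = 0.000299). *Igfbp7* lies on chromosome 5 from 77493130 to 77555931. An exon is overlapped by *Polr2b* on the other strand, an RNA polymerase II subunit gene with 5983 ± 61.4 normalized counts in Empty, 5904 ± 70.7 in SAM1 and 6190 ± 173 in SAM2 (SD, n = 3). The difference of *Polr2b* from Empty was -0.019 and 0.049 on the log2 scale, and neither passed the threshold (adjusted p = 0.556 and 0.148). The 14 listed genes within 1 Mb had medians of 0.10 and 0.044.

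*Igfbp6*, whose protein binds IGF2 in preference to IGF1, had 2223, 2413 and 2324 normalized counts in Empty, 4181, 4526 and 3935 in SAM1, and 4064, 4147 and 4109 in SAM2. The 6 SAM libraries lay above Empty, and the lines overlapped. It rose by 0.86 on the log2 scale in SAM1 (standard error 0.0467, adjusted p = 1.78e-09) and by 0.82 in SAM2 (standard error 0.0467, adjusted p = 3.78e-09). The difference between the lines was -0.035 (standard error 0.0467, adjusted p = 0.539). *Igfbp6* lies on chromosome 15 from 102052697 to 102057953 on the plus strand. Of the 33 listed genes within 1 Mb, 21 were called higher and 8 lower in SAM1 (median 0.16). In SAM2, 25 were called higher and 3 lower (median 0.41). The 595 other listed genes of chromosome 15 had medians of 0.19 in SAM1 and 0.32 in SAM2, so the shift was not confined to this neighbourhood. Its part in the rise of *Igfbp6* was not tested.

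*Igfbp4*, like *Igf2*, lay on opposite sides of Empty in the lines. Its protein restrains IGF action until the protease PAPP-A cuts it. Normalized counts were 8083, 9066 and 8389 in Empty, 14602, 15378 and 14577 in SAM1, and 6842, 6949 and 7120 in SAM2. SAM1 lay above Empty and SAM2 below it, with no overlap. *Igfbp4* rose by 0.80 in SAM1 (standard error 0.0400, adjusted p = 7.07e-10) and fell by 0.29 in SAM2 (standard error 0.0400, adjusted p = 2.48e-05), a difference of -1.09 between the lines (adjusted p = 1.32e-10). It lies on chromosome 11 from 98932064 to 98945218 on the plus strand, where the 28 listed genes within 1 Mb had medians of -0.17 and -0.24.

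**Figure D3:**
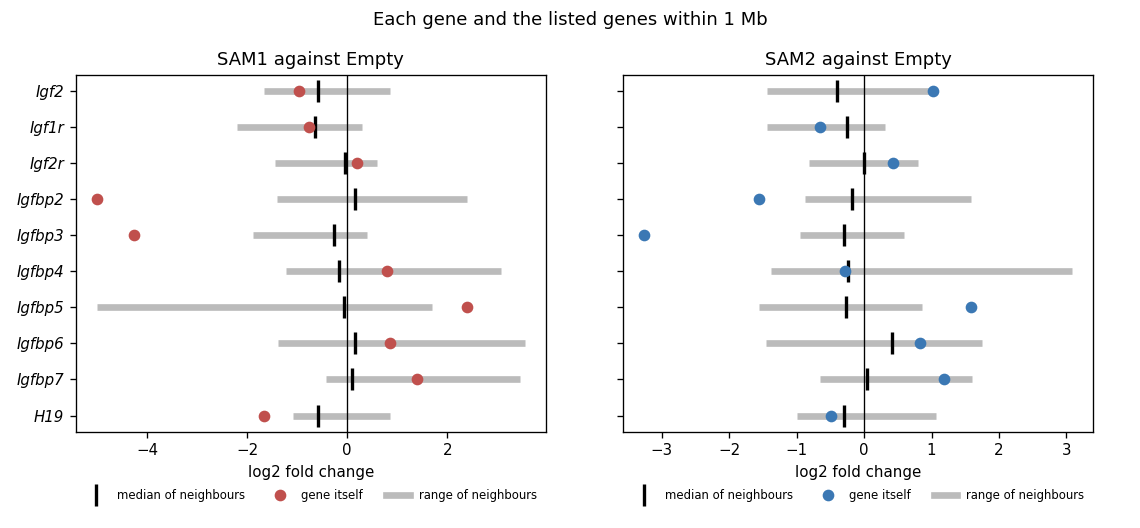
Log2 fold change of each gene (points) beside the range (grey bars) and median (black ticks) of the other listed genes within 1 Mb of it, for SAM1 (left) and SAM2 (right) against Empty. *Igfbp2*, *Igfbp3* and *Igfbp5* lay outside the range of their neighbours in both lines, while *Igf1r* in SAM1 lay close to the median of its 8 neighbours.

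Levels were compared between genes only after division by the length of the canonical transcript (normalized counts per kb). In Empty, *Igfbp4* (2219 ± 131), *Igf2r* (2130 ± 175), *Igfbp7* (2027 ± 81.5) and *Igfbp6* (1903 ± 77.9) led (SD, n = 3). The step from *Igfbp4* to *Igf2r* was smaller than either SD. That from *Igf2r* to *Igfbp7* was smaller than the SD of *Igf2r* but larger than that of *Igfbp7*. The step from *Igfbp7* to *Igfbp6* was larger than either SD. *Igfbp3* (922 ± 13.8), *Igf1r* (569 ± 38.2), *Igfbp2* (390 ± 28.4), *H19* (287 ± 7.80) and *Igfbp5* (117 ± 14.05) followed in separate steps, and *Igf2* was last (2.99 ± 0.275). In SAM1 the order was *Igfbp7* (5323 ± 248.8), *Igfbp4* (3871 ± 119), *Igfbp6* (3457 ± 244), *Igf2r* (2448 ± 197), *Igfbp5* (618 ± 36.3), *Igf1r* (335 ± 14.7), *H19* (90.7 ± 5.16), *Igfbp3* (48.0 ± 1.34), *Igfbp2* (11.5 ± 1.55) and *Igf2* (1.48 ± 0.589), with each step larger than either SD. In SAM2 *Igfbp7* (4600 ± 54.9) led *Igfbp6* (3369 ± 34.3), *Igf2r* (2857 ± 52.1) and *Igfbp4* (1817 ± 36.6), *Igf1r* (360 ± 8.29) and *Igfbp5* (350 ± 12.9) lay within their spread, and *H19* (204 ± 12.1), *Igfbp2* (133 ± 15.6), *Igfbp3* (96.0 ± 1.37) and *Igf2* (6.42 ± 1.596) followed.

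The summed level of the 6 binding protein transcripts was higher in both lines, and its make-up differed. The sum was 7578 ± 290 per kb in Empty, 13328 ± 572 in SAM1 and 10364 ± 72.8 in SAM2 (SD, n = 3), and the ranges did not overlap. *Igfbp3* made up 12.2% ± 0.623 of it in Empty, 0.361% ± 0.0180 in SAM1 and 0.926% ± 0.0106 in SAM2, and *Igfbp2* 5.15% ± 0.180, 0.0868% ± 0.0150 and 1.28% ± 0.142. *Igfbp7* held 26.7% ± 0.170, 39.9% ± 0.158 and 44.4% ± 0.394. *Igfbp4* held 29.3% ± 0.601 in Empty and 29.1% ± 0.490 in SAM1, which did not differ beyond their spread, and 17.5% ± 0.371 in SAM2, while *Igfbp6* had 25.1% ± 0.240, 25.9% ± 0.726 and 32.5% ± 0.151. *Igfbp5* stayed the smallest of the raised genes, with 1.56% ± 0.241, 4.65% ± 0.443 and 3.38% ± 0.147 (SD, n = 3 throughout). A share depends on the other genes in the sum, and differences in shares were not tested.

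**Figure D4:**
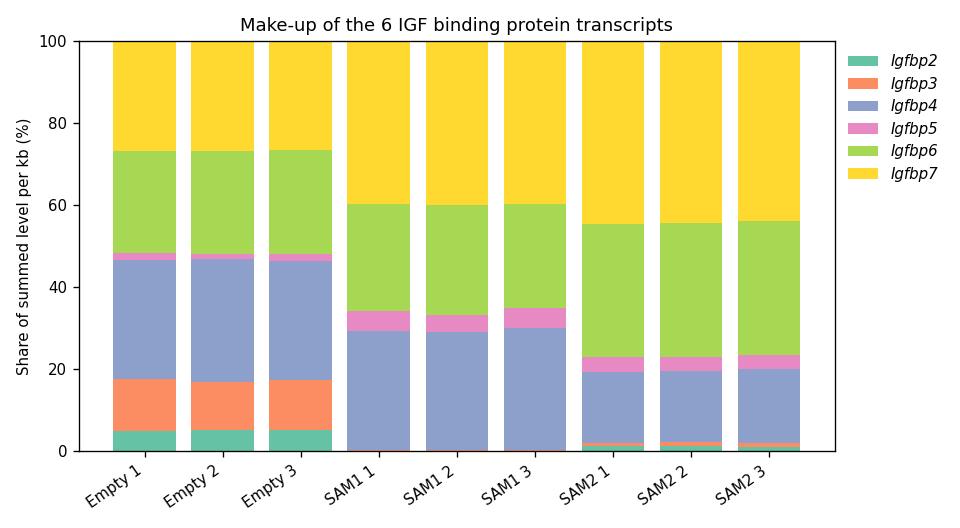
Share (%) of each binding protein transcript in their summed level per kb, with 1 stacked bar for each of the 9 libraries. *Igfbp3* and *Igfbp2* held 12.2% and 5.15% in Empty and at most 0.926% and 1.28% in the means of the lines, where *Igfbp7* had the largest share.

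With both lines pooled, as they share the label Hnrnpk_SAM, 8 of the 10 genes were called, 4 higher and 4 lower, against 53.9% of all genes (26.8% higher, 27% lower). This fit counted the 6 SAM libraries as separate, though they came from 2 lines. Its p-values therefore do not take the line as the unit. *Igf2* (log2 fold change 0.026, standard error 0.623, adjusted p = 0.975) and *Igfbp4* (0.26, standard error 0.311, adjusted p = 0.510) were not called, and for both genes the lines lay on opposite sides of Empty. Log2 fold changes were -0.71 for *Igf1r* (adjusted p = 5.96e-06), -3.76 for *Igfbp3* (adjusted p = 4.88e-06), -3.28 for *Igfbp2* (adjusted p = 0.0183) and -1.08 for *H19* (adjusted p = 0.0217). *Igfbp5*, *Igfbp6*, *Igfbp7* and *Igf2r* rose by 1.99, 0.84, 1.29 and 0.31 (adjusted p = 0.000102, 8.83e-07, 7.20e-07 and 0.0144). With 1 Empty library left out, 5 to 6 genes were called in place of 8. *Igfbp2* lost its call in each case (adjusted p = 0.0526, 0.0596 and 0.0560 without Empty replicates 1, 2 and 3), as did *H19* (0.0667, 0.0653 and 0.0598), and *Igf2r* without replicate 2 (0.0700) or 3 (0.0561).

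The receptors' partners inside the cell were read from a list of 27 IGF signalling genes, of which 23 were in the table. In SAM1 8 were called higher, 9 lower and 6 not, with a median log2 fold change of -0.053, and in SAM2 9 higher, 12 lower and 2 not, with a median of -0.069. At 73.9% and 91.3%, the shares called were near the 74.3% of all genes in SAM1 and above their 70.5% in SAM2. *Grb10*, an imprinted adaptor that dampens insulin and IGF1 receptor signalling, fell from 31524 ± 894 normalized counts in Empty to 12843 ± 416 in SAM1 and 15169 ± 154 in SAM2 (SD, n = 3), which is -1.30 (adjusted p = 5.51e-13) and -1.05 (adjusted p = 6.60e-12) on the log2 scale. The kinase gene *Akt2* fell as well (-0.63 and -0.53, adjusted p = 1.58e-09 and 1.19e-08). The ligand gene *Igf1*, at 248.8 ± 18.1, 167 ± 20.8 and 185 ± 10.1 normalized counts (SD, n = 3), fell by 0.58 and 0.42 (adjusted p = 0.000122 and 0.00163). The insulin receptor gene *Insr* differed by -0.019 in SAM1 (adjusted p = 0.750) and rose by 0.38 in SAM2 (adjusted p = 1.71e-05).

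Among the docking proteins, *Irs2* differed from Empty by 0.033 and -0.012 (adjusted p = 0.611 and 0.869), with 2480 ± 138, 2541 ± 210 and 2459 ± 73.7 normalized counts (SD, n = 3). *Irs1* fell by 0.33 in SAM2 (adjusted p = 0.000103), and its value of 0.16 in SAM1 (adjusted p = 0.0182) did not pass without Empty replicate 3, SAM1 replicate 1 or SAM1 replicate 3 (adjusted p = 0.0798, 0.0874 and 0.0802). *Gab1*, which encodes a scaffold, rose by 0.50 and 0.47 (adjusted p = 8.57e-08 and 2.00e-07), and *Pik3r2*, a regulatory subunit of PI 3-kinase, by 0.30 and 0.48 (adjusted p = 5.45e-07 and 5.85e-09). *Grb14*, an adaptor of the *Grb10* family, rose by 1.23 in SAM1 and fell by 0.36 in SAM2 (adjusted p = 2.21e-10 and 4.73e-05), as *Igfbp4* did.

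A list of 18 genes that regulate IGF supply held 16 measured genes, with 7 called higher and 7 lower in SAM1 (median 0.046) and 4 higher and 8 lower in SAM2 (median -0.14), or 87.5% and 75% called beside 74.3% and 70.5% of all genes. The protease gene *Htra1*, whose product cuts binding proteins, fell from 45461 ± 1203 normalized counts in Empty to 4565 ± 145 in SAM1 and 14670 ± 124 in SAM2 (SD, n = 3), which is -3.32 (adjusted p = 9.42e-17) and -1.63 (adjusted p = 1.04e-13) on the log2 scale. Its low relative *Htra3* rose from 16.7 ± 4.09 to 79.2 ± 5.21 and 86.0 ± 5.37 (SD, n = 3, log2 fold changes 2.20 and 2.32, adjusted p = 5.81e-08 and 4.45e-08). *Stc2*, which encodes a stanniocalcin that inhibits the pappalysin proteases, fell by 3.15 and 1.70 (adjusted p = 5.64e-15 and 2.43e-12), and *Pappa2*, a pappalysin that cuts IGFBP3 and IGFBP5, by 1.49 and 1.58 (adjusted p = 1.04e-09 and 8.96e-10). *Stc1*, the other stanniocalcin, rose by 1.36 in SAM1 (adjusted p = 1.17e-10). In SAM2 *Stc1* differed by 0.14 (adjusted p = 0.0359), which did not pass with quantile normalization (adjusted p = 0.374), with DESeq2 (0.0710) or without Empty replicate 1 or 2 or SAM2 replicate 2 or 3 (0.0663, 0.143, 0.109 and 0.0976). *Pcsk6*, a proprotein convertase gene, rose by 0.58 and 1.49 (adjusted p = 5.67e-05 and 6.33e-09). Of the proteins that bind *Igf2* mRNA, *Igf2bp1* and *Igf2bp3* rose in SAM1 by 0.49 and 0.45 (adjusted p = 9.26e-09 and 3.97e-08) and differed by 0.033 and -0.037 in SAM2 (adjusted p = 0.372 and 0.332), while *Igf2bp2* fell by 0.35 and 0.23 (adjusted p = 8.73e-07 and 5.51e-05).

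Other imprinted genes were read because *Igf2*, *H19* and *Igf2r* are imprinted. Of 44, 34 were in the table, with 12 called higher and 18 lower in SAM1 (median -0.29) and 8 higher and 18 lower in SAM2 (median -0.27). The shares called, 88.2% and 76.5%, stand beside 74.3% and 70.5% of all genes. Some of the 34 are also among the listed genes within 1 Mb of *H19* and *Igf2*, so these counts and those of the neighbours are not separate. By the mean of the log2 fold changes in the 2 lines, the largest rises were in *Slc38a4*, *Peg3* and *Usp29*. *Slc38a4*, an amino acid transporter gene, went from 278 ± 13.4 normalized counts to 2363 ± 67.5 and 3624 ± 68.8, *Peg3*, a zinc finger gene, from 182 ± 17.8 to 1870 ± 77.0 and 1584 ± 39.2, and *Usp29*, which shares its promoter region with *Peg3*, from 5.65 ± 2.36 to 60.3 ± 5.07 and 34.1 ± 0.400 (SD, n = 3). Their log2 fold changes were 3.08 and 3.70, 3.35 and 3.12, and 3.26 and 2.46 (adjusted p at most 9.02e-07). By the same mean the largest falls were in *Ndn*, a growth-suppressing gene of the MAGE family (-1.70 and -3.69), *Mest*, which encodes a hydrolase-like protein (-2.80 and -1.96), and *Dcn*, the matrix proteoglycan decorin (-2.12 and -2.22), with adjusted p at most 2.25e-10. *Dcn* is imprinted in placenta and is also among the fibroblast markers. Imprinted genes thus moved in both directions, and allele-specific expression was not measured.

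**Figure D5:**
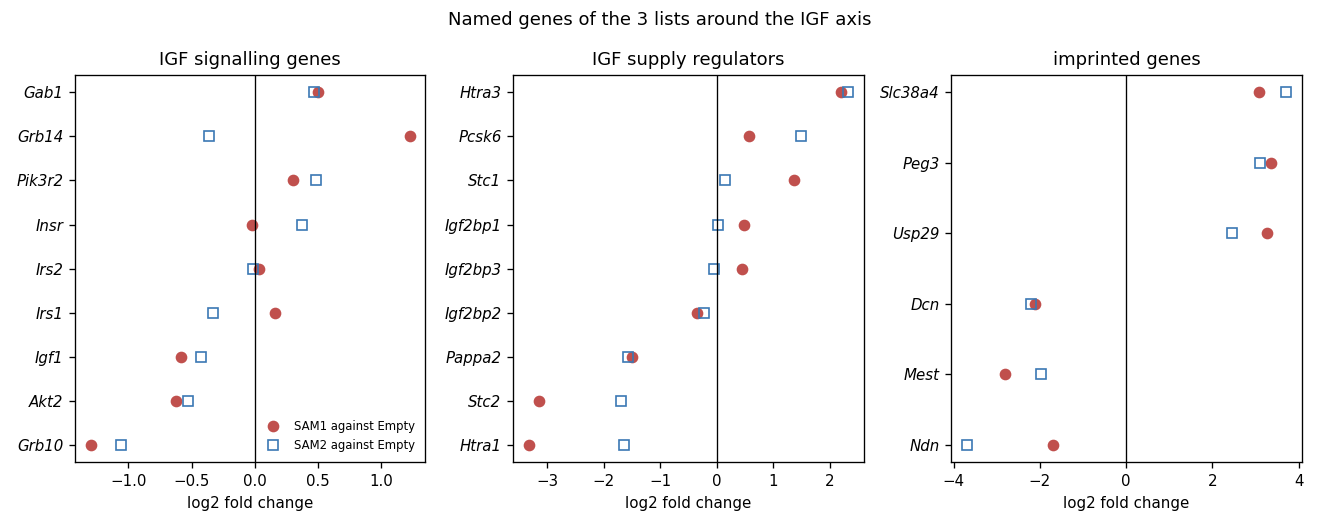
Log2 fold changes of the genes described from the 3 lists in SAM1 (filled circles) and SAM2 (open squares) against Empty. *Htra1*, *Stc2*, *Grb10*, *Ndn*, *Mest* and *Dcn* lay below 0 in both lines, *Slc38a4*, *Peg3*, *Usp29* and *Htra3* above 0 in both, and *Grb14* and *Irs1* on opposite sides; *Grb10* belongs to 2 lists and is drawn once.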

How the data were processed

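PolyA+ RNA of MEFs was sequenced in 9 libraries, and groups and replicate numbers were taken from the titles. The authors checked reads with FastQC 0.11.0, aligned them to GRCm39 with TopHat2, counted genes with HTSeq and scaled libraries with DESeq2. What they deposited is a signal, the normalized count, for 15184 genes, all above 10 in at least 3 libraries. Values were whole multiples of 1 read (tolerance 0.001) in 100% of genes of each library, which gave back the reads. The main test was limma 3.58.1 (empirical Bayes with trend) in R 4.3.3 on log2(value + 1), two-sided, with Benjamini-Hochberg adjustment over all genes and a threshold of 0.05. A fit of 3 groups compared Empty, SAM1 and SAM2, and a fit of 2 groups pooled the lines. Alternatives were a pseudocount of 10, genes above 10 in every library, quantile normalization, a replicate block, edgeR 4.0.16 and DESeq2 1.42.0 on the recovered reads of all 9 libraries, and each library left out. Tests were checked on simulated data with few genes changed, in SAM1 only, and the same dispersion for all genes. This differs from these data, in which most genes were called. Replicates of 1 group differed beyond counting noise, with a chi-square per gene of 11.5 to 13.8 in Empty, 1.46 to 9.49 in SAM1 and 1.54 to 2.33 in SAM2. The fit of 3 groups shares 1 estimate of the spread, so p-values between the lines also depend on the Empty libraries.

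The members and lists were chosen with earlier results of these data known. The lists came from general knowledge. Named genes were the members and the 3 largest rises and falls of each list among genes called in either line. Also named were 8 receptor, adaptor and mRNA-binding genes, the listed genes beside *H19* and *Igf2*, the 3 genes most like each member, and *Hnrnpk*. *Airn*, *Polr2b* and the measured markers were named after their values were seen. Some genes that this rule names are not reported here. Positions and lengths are from GENCODE vM39, in which 14791 names were found once, and promoter and miRNA sequences from RefSeq (GRCm38.p6), which held 9 of the 10 genes, placed on GRCm39 by exact match.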

Additional observations from a re-analysis of the deposited data

Results flagged for a closer look

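The change from Empty differed between the lines, by the test of SAM2 against SAM1 in the same limma fit, in 8 of the 10 genes. On the log2 scale SAM2 lay above SAM1 by 1.98 for *Igf2*, 0.23 for *Igf2r*, 3.45 for *Igfbp2*, 0.99 for *Igfbp3* and 1.17 for *H19*. It lay below SAM1 by -1.09 for *Igfbp4*, -0.82 for *Igfbp5* and -0.21 for *Igfbp7* (adjusted p from 9.19e-11 to 0.00521 over the 8 genes). For *Igf2* and *Igfbp4* the lines also lay on opposite sides of Empty.

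Among the IGF signalling genes the same test gave differences of -1.59 for *Grb14*, 0.18 for *Pik3r2*, 0.39 for *Insr*, -0.49 for *Irs1*, 0.097 for *Akt2* and 0.24 for *Grb10*. Among the regulators of supply they were 0.91 for *Pcsk6*, -1.22 for *Stc1*, -0.46 for *Igf2bp1*, -0.49 for *Igf2bp3*, 0.12 for *Igf2bp2*, 1.45 for *Stc2* and 1.68 for *Htra1*. Among other imprinted genes they were 0.62 for *Slc38a4*, -0.24 for *Peg3*, -0.80 for *Usp29*, -0.096 for *Dcn*, 0.84 for *Mest* and -1.99 for *Ndn*. The neighbours *Tnnt3* and *R74862* of the *H19* and *Igf2* pair differed by 1.58 and -0.28. Of all genes, 60.3% differed between the lines.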

How the results depend on the processing

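The number of the 10 genes called was 9 to 10 in SAM1 and in SAM2 against Empty and 8 to 9 between the lines when each library was left out in turn. Over both lines pooled it was 5 to 8, and 5 without Empty replicate 2 or 3. Counts for the 3 lists stayed within 1.5 times under every alternative. With the replicate block 7 genes were called over both lines pooled in place of 8, since *H19* had an adjusted p of 0.0538, and 9 between the lines in place of 8, since *Igf1r* had one of 0.0262. Libraries with the same replicate number correlated weakly in their deviations (r from 0.00237 to 0.117, mean 0.0531, over 9 pairs). Of the 9 libraries, 6 were closest to their own number in each other group. The mean of -0.027 over the 18 other pairs is no separate comparison, because deviations from group means cancel within each group. Of all genes, the block called 76.6% in SAM1 and 73.1% in SAM2 against Empty, in place of 74.3% and 70.5%. Over both lines pooled it called 48.4% in place of 53.9%. Whether libraries of the same number share a source was not tested. The labels give no pairing, so the numbers were not taken as pairs. Keeping genes above 10 in every library removed *Igf2*. Called values that moved by over 1.5 times and kept their call, beside those of *Igf2*, were with quantile normalization those of *Igf2r* in SAM1 (0.38) and pooled (0.47), *Tnnt3* (-1.94) and *R74862* (-0.57) in SAM1, and with a pseudocount of 10 that of *Usp29* in SAM2 (1.51). With quantile normalization, directions turned to 0.029 for *Insr* in SAM1, -0.58 for *Igf2* over both lines and -0.028 for *Tspan32* in SAM2. The median over all genes of the shift it gave each gene's log2 fold change was at most -0.063, in SAM2 against Empty. With a library left out, values ran from -0.061 to 0.044 for *Insr* in SAM1, from -0.015 to 0.10 for *Irs2* in SAM1, from -0.057 to 0.020 for *Irs2* in SAM2, from -0.083 to 0.018 for *Igfbp6* between the lines, from -0.25 to 0.35 for *Igf2* over both lines, from -0.30 to 0.14 for *Tspan32* in SAM1 and from -0.056 to 0.39 in SAM2. The causes were not tested. Depth limits *Igf2*, with 3 to 31 reads per library.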

Other observations

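The genes of the table with a pattern most like each of the 10 were found by the root mean square difference over the 9 libraries in log2 value minus the Empty mean, among genes with a mean of at least 100 normalized counts. *Igfbp7* was matched most closely, by *Acta2*, which encodes smooth muscle actin, at 0.0188, with log2 fold changes of 1.40 in SAM1 and 1.19 in SAM2. *Igfbp6* was nearest to *Pnp* (0.0301), *Spc24* (0.0482) and *Pkmyt1* (0.0543), the last of which encodes a kinase of the cell cycle. *Igf2r* lay near *Zfp871* (0.0308), *Arid1b* (0.0327) and *Itpr3* (0.0408), and *Igf1r* near *Fosl2* (0.0399) and *Capn2* (0.0442). *Igfbp4* was nearest to *Smad7* (0.0603), an inhibitor of TGF-beta signalling, with *Pisd* (0.0637) and *Arhgdib* (0.0639).

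*Igfbp5* was nearest to the endothelin receptor gene *Ednra* (0.0750), then to *Jph2* (0.0992) and *Npnt* (0.124), and *H19* to *Pcdhb20* (0.0867), *Arnt2* (0.0987) and *Itga11* (0.107). Matches were looser for the genes that fell most, *Igfbp3* with *Clec2e* (0.249), *Trio* (0.286) and *Ankrd33b* (0.295), and *Igfbp2* with *Map3k7cl* (0.546), *Msln* (0.732) and *Apod* (0.782), and for the scarce *Igf2* with *Foxf1* (0.310), *Bicd1* (0.329) and *Klhl30* (0.329). After *Acta2*, *Igfbp7* was nearest to *Ska1* (0.0635) and *Ptprn* (0.0645). The points of each comparison share 3 Empty libraries and 2 lines, and these are descriptions with no test.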
